A study of Danio rerio with 12 samples.

Results

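The SoxE genes sox9a, sox9b and sox10 encode transcription factors with an HMG box, and they are 3 of the 25680 zebrafish genes counted in the 12 RNA-seq libraries described here. They were taken by symbol, with their levels in mutants and controls already in view, so their values are compared as a description and carry no test. RNA came from untreated zebrafish of strain background AB, with wild type embryos bred from AB and TU parents. Double mutants (DM) carried mutations that inactivate tet2 and tet3, the enzymes that oxidise methylated cytosine in DNA. The sibling group mixed wild type animals with fish heterozygous for a mutation in tet2, in tet3 or in both, so it is a control of several genotypes. Whole embryos at 25 hours post fertilisation (hpf) were sequenced as 3 sibling and 3 DM libraries. Hearts at 48 hpf, cut out under a microscope, were sequenced as 2 wild type (WT), 2 sibling and 2 DM libraries, all numbered 1 and 3, and heart RNA was amplified before the libraries were made. Neither the number of animals per library nor a separate clutch for each is stated, so the p-values given cover the spread between these libraries, and that spread may be technical.

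SoxE proteins bind DNA through the HMG box and work in the neural crest, the migratory cells that leave the dorsal neural tube and form pigment cells, peripheral glia and much of the head cartilage. In zebrafish, sox10 is needed for pigment cells, peripheral glia and the ear, while sox9a and sox9b, duplicates of the single Sox9 gene of tetrapods, act in head cartilage, crest, ear and fin. Sox9 is also a factor of radial glia in the retina and brain, and in mouse hearts it is needed for the endocardial cushions that form the valves.

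Gene sox9a (ENSDARG00000003293) lies on chromosome 12 from 1927596 to 1931236 in the coordinates deposited with the counts, for which the build GRCz10 is named. Its duplicate sox9b (ENSDARG00000043923) lies on chromosome 3 from 62341796 to 62348451. The gene sox10 (ENSDARG00000077467) lies at the other end of chromosome 3, from 2013057 to 2022138. The remaining SoxE genes, sox8a and sox8b, had few counts and are described last.

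Embryo libraries held 8341467 to 16700992 counts and heart libraries 3289161 to 5963478, so a count of 0 allowed up to 0.180 to 0.360 CPM (counts scaled by the library total) in an embryo library and up to 0.503 to 0.912 CPM in hearts. Both targeted genes, tet2 (77.7 to 351 CPM) and tet3 (35 to 119 CPM), had counts in all 12 libraries, mutants included, and a count per gene is no measure of the protein made. Heart libraries matched their label by cardiomyocyte markers: the 18 genes summed to 2.67% to 8.60% of the counts in hearts and 0.0733% to 0.193% in embryos. Heart libraries sibling 1 and DM 1 stood apart, since the 21 measured lens and retina markers took 0.479% and 0.216% of their counts against 0.00312% to 0.00978% in the other 4 heart libraries. In embryos these markers took 0.0151% to 0.0385% of counts in siblings and 0.00502% to 0.00619% in DM, with no overlap. Among the lens genes crybb2 was at 0 in all 6 embryo libraries.

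In 25 hpf embryos, sox9b was the SoxE gene with the largest difference between DM and sibling libraries, and it was lower in the DM library of every equally numbered pair. Its level was 42.4, 17.5 and 44.4 CPM in sibling libraries 1, 2 and 3 and 17.9, 10.2 and 8.25 CPM in DM libraries 1, 2 and 3. The groups touched, because sibling 2 was just below DM 1, while siblings 1 and 3 were well above every DM library. Siblings averaged 34.8 ± 14.9 CPM, and DM 12.1 ± 5.12 CPM (SD, n = 3). Within pairs 1, 2 and 3 the DM level was 0.423, 0.581 and 0.186 of the sibling level.

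The edgeR log2 fold change of sox9b (DM over sibling) was -1.44 (SE 0.37). Equally numbered embryo libraries deviated together from their group means (correlations of 0.847, 0.672 and 0.270), but sibling 2 and DM 3 also had 0.512. The labels state no pairing, so a block by replicate number rests on these same data. With that block the log2 fold change of sox9b was -1.41 (SE 0.20). With the block, 0.28% of the 17831 genes tested had a lower log2 fold change than sox9b, and the median of all genes was 0.02. Genes with a genomic span within 1.5 times that of sox9b had a median of 0.21, and with the trend in span taken out of the blocked fit, sox9b stood at -1.58. In whole embryos, fewer cells of a type and less RNA per cell cannot be told apart. The lens and retina markers moved in the same direction as sox9b, and their part in its level was not tested.

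The duplicate sox9a did not separate the groups. It was counted at 36.7, 18.4 and 31.7 CPM in siblings 1, 2 and 3 and at 33.4, 16.9 and 16.5 CPM in DM 1, 2 and 3. Siblings 1 and 3 and DM 1 were high, and sibling 2, DM 2 and DM 3 were low, so the libraries split by more than genotype. Siblings averaged 29.0 ± 9.45 CPM, and DM 22.3 ± 9.66 CPM (SD, n = 3). The log2 fold change was -0.31 (SE 0.31), or -0.32 (SE 0.16) with the block, and 22.5% of the genes had a lower one in the blocked fit.

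The crest and glial factor sox10 split the libraries in the same way as sox9a. Sibling libraries 1, 2 and 3 held 25.0, 13.6 and 20.4 CPM, and DM libraries 1, 2 and 3 held 20.1, 10.5 and 9.54 CPM. DM 1 was within the sibling range, and the other DM libraries were below it. The sibling mean was 19.7 ± 5.71 CPM, the DM mean 13.4 ± 5.83 CPM (SD, n = 3). The log2 fold change was -0.49 (SE 0.31), or -0.50 (SE 0.17) with the block, and 11.3% of the genes had a lower one in the blocked fit.

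Differences within pairs, on the scale of log2 CPM after TMM scaling, were smaller in pairs 1 and 2 than in pair 3 for sox9a and sox10. They were -0.14, -0.07 and -0.77 for sox9a in pairs 1, 2 and 3. For sox10 they were -0.32, -0.31 and -0.92, and for sox9b -1.24, -0.72 and -2.24. All 9 differences were negative, and pair 3 gave the largest for each gene. Genes of a span like that of sox9a and of sox10 had median blocked log2 fold changes of 0.24 and 0.17. With the trend in span removed, the blocked values were -0.50 for sox9a and -0.63 for sox10.

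**Figure D1:**
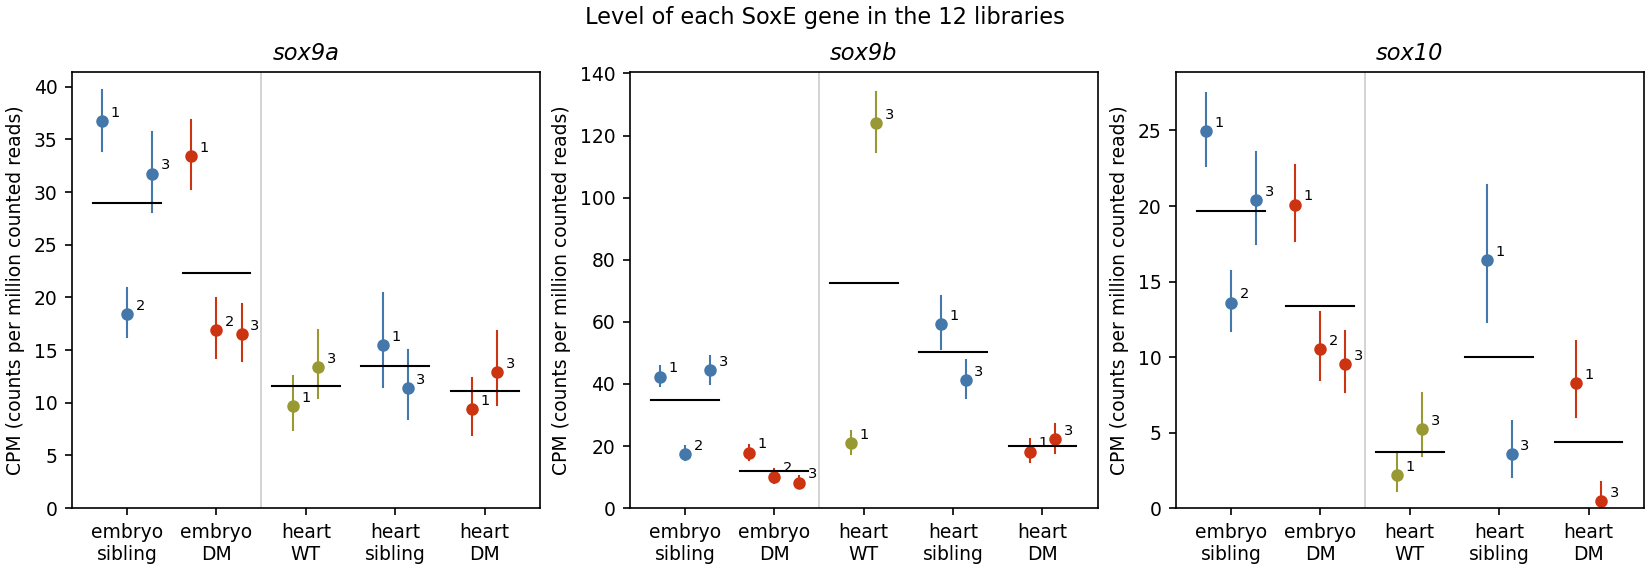
Level of sox9a, sox9b and sox10 in CPM (y axes, from 0) in each of the 12 libraries, grouped by tissue and genotype on the x axes. Points are libraries with their replicate number and an exact Poisson interval of 95% for counting error, and black lines are group means. DM libraries 2 and 3 are the lowest 2 of the 6 embryo libraries in every panel, and among hearts WT 3 lies at 124 CPM for sox9b.

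The balance of the SoxE transcripts within a library does not depend on library depth or scaling. Per count of sox9a, embryos held 1.15, 0.952 and 1.40 counts of sox9b in siblings 1, 2 and 3. In DM embryos 1, 2 and 3 the same ratio was 0.536, 0.603 and 0.50. The groups did not overlap, every sibling library having more sox9b per sox9a than every DM library. Of all genes tested, 5.92% were lower per sox9a count in every DM embryo than in every sibling embryo, and since the choice of genes used this contrast nothing is read from it.

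Against sox10 the balance of sox9b moved likewise. Siblings 1, 2 and 3 held 1.70, 1.29 and 2.18 counts of sox9b per count of sox10, and DM 1, 2 and 3 held 0.892, 0.966 and 0.865. Again no DM library reached the lowest sibling library, and 1.45% of all genes were lower per sox10 count in every DM than in every sibling embryo, a share from which nothing is read either. The ratio of sox10 to sox9a was closer between the groups, with 0.680, 0.739 and 0.642 in siblings and 0.601, 0.624 and 0.578 in DM. Those groups did not overlap either, but the gap between them was smaller than the counting intervals, 0.530 to 0.776 in sibling 3 and 0.473 to 0.820 in DM 2.

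**Figure D2:**
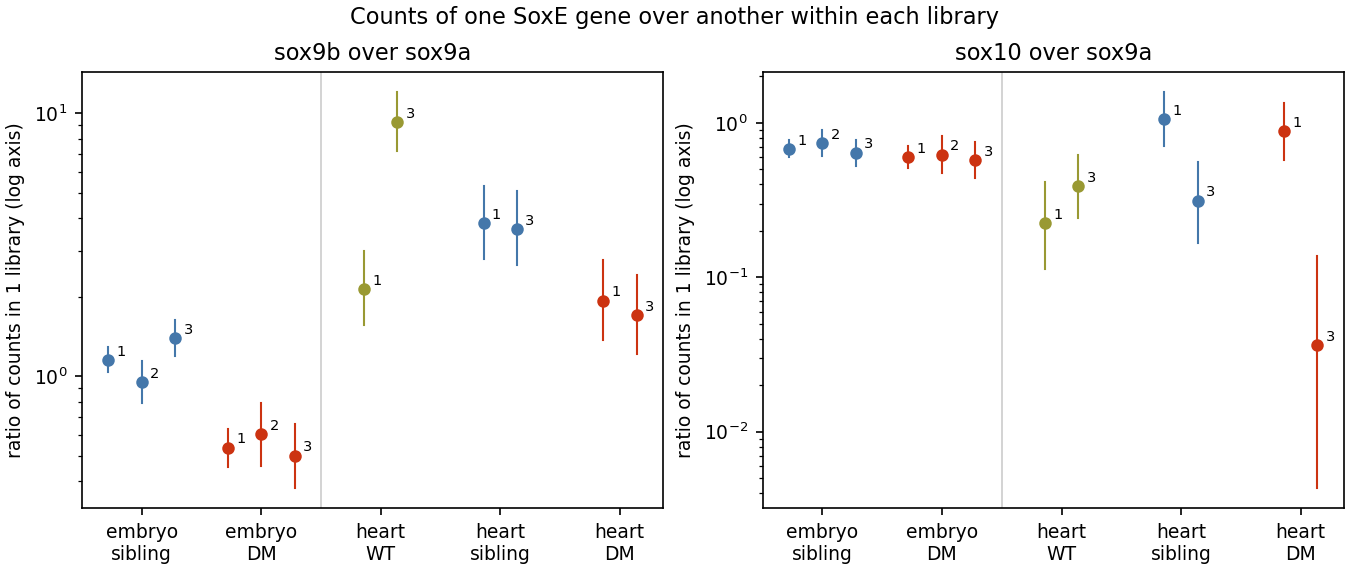
Counts of sox9b (left) and of sox10 (right) per count of sox9a in each library, on log axes, with exact 95% intervals for counting error and replicate numbers. For sox9b, all 3 DM embryo libraries lie at 0.50 to 0.603 and all 3 sibling embryo libraries at 0.952 to 1.40, and the DM hearts at 1.71 and 1.94 lie below the other 4 hearts.

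In 48 hpf hearts, sox9b was again lower in DM than in sibling libraries, while WT libraries spread over the whole range. It was counted at 21.0 and 124 CPM in WT 1 and 3, from 125 and 639 counts. Sibling hearts 1 and 3 held 59.3 and 41.3 CPM, and DM hearts 1 and 3 held 18.2 and 22.1 CPM. Both sibling hearts were above both DM hearts, while WT 1 was between the DM libraries. The mean was 72.5 ± 72.9 CPM in WT, 50.3 ± 12.7 CPM in siblings and 20.2 ± 2.78 CPM in DM (SD, n = 2). Of all genes tested in hearts, 15% were lower in both DM than in both sibling libraries, so a gap of this kind was common.

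The edgeR log2 fold change of sox9b was -1.32 (SE 0.74) for DM over sibling hearts and -2.11 (SE 0.75) for DM over WT hearts. Both comparisons use the same DM libraries. Wild type embryos were bred from AB and TU parents, so in any comparison with WT hearts strain and genotype cannot be told apart. The value against WT rested on WT 3: without that library it was -0.37, and without WT 1 it was -2.87. With the hearts numbered 3 alone, without the lens-bearing libraries, the values were -0.88 against the sibling and -2.66 against WT, with no test. WT 3 also had the highest share of neuron markers in hearts, 0.456% of counts against 0.0682% in WT 1, with all 17 genes detected in both. Its rank above sibling 1 rested on elavl3, which gave 1938 of the 4556 summed CPM in WT 3. In sibling 1 the top gene was tubb5, with 1482 of 4479 CPM. In the other hearts that share was 0.448% in sibling 1, 0.0930% in sibling 3, 0.398% in DM 1 and 0.208% in DM 3, and DM 1 combined a high share with a low sox9b level. The part of neural tissue in the sox9b level was not tested.

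Per count of sox9a, WT hearts 1 and 3 held 2.16 and 9.26 counts of sox9b, sibling hearts 3.82 and 3.63, and DM hearts 1.94 and 1.71. Both DM hearts were below all 4 control hearts. The 95% intervals of WT 1 (1.57 to 3.00) and DM 1 (1.37 to 2.78) overlapped, and so did those of WT 1 and DM 3 (1.21 to 2.43) and those of sibling 3 (2.65 to 5.05) and DM 1. The intervals of sibling 1 (2.80 to 5.31) and of both DM hearts did not overlap. Of all genes, 7.44% were lower per sox9a count in both DM than in both sibling hearts and 7.04% in both DM than in both WT hearts. The share lower than in all 4 control hearts was not counted. Since the choice of genes used these contrasts, nothing is read from the gap.

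The level of sox9a was nearly even across hearts. WT 1 and 3 held 9.73 and 13.4 CPM, siblings 1 and 3 held 15.5 and 11.4 CPM, and DM 1 and 3 held 9.38 and 13.0 CPM. The 3 groups overlapped, and the 6 counts ranged from 51 to 69. Its log2 fold change was -0.27 (SE 0.46) for DM over sibling and -0.33 (SE 0.46) for DM over WT. With the hearts numbered 3 alone the first was 0.18, and without DM 3 the values were -0.62 and -0.67.

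Counts of sox10 in hearts were low and uneven. They were 13 and 27 in WT 1 and 3, 54 and 16 in siblings 1 and 3, and 45 and 2 in DM 1 and 3, or 2.18, 5.24, 16.4, 3.57, 8.27 and 0.471 CPM. Sibling 1 and DM 1 were the highest 2 libraries, and DM 3, with an exact Poisson interval of 0.0570 to 1.70 CPM, was the lowest. These high libraries are the ones that carried lens transcripts, such as cryba4 at 878 CPM in sibling 1 and 561 CPM in DM 1 against 2.83 to 16.1 CPM in the other hearts. The part of eye or head tissue in their sox10 counts was not tested.

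The log2 fold change of sox10 was -1.20 (SE 1.17) for DM over sibling hearts and -0.07 (SE 1.18) for DM over WT hearts. These values depended on single libraries. Against siblings it was 0.18 without sibling 1 and -4.25 without DM 1. Against WT it was -3.12 without DM 1 and 0.80 without DM 3. With the hearts numbered 3 alone, which leaves out both lens-bearing libraries, it was -2.12 against siblings and -2.80 against WT, with no test at 1 library a group.

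**Figure D3:**
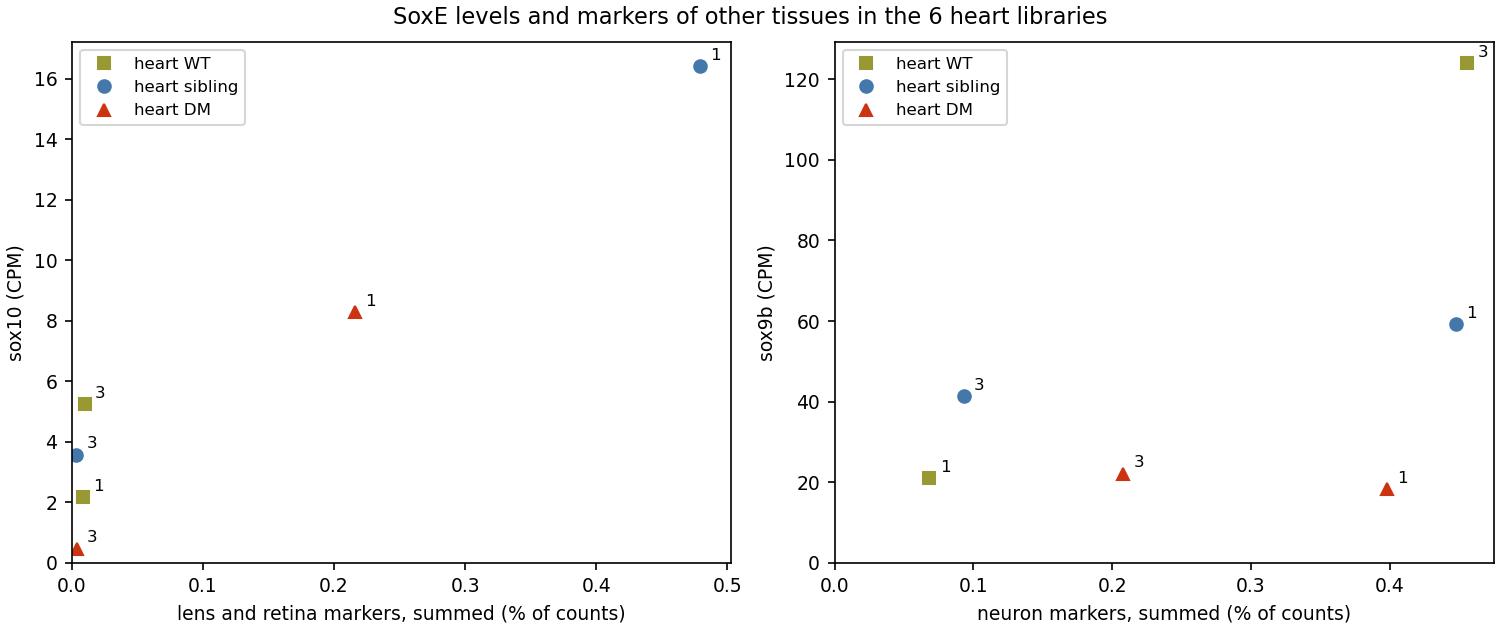
SoxE levels (y axes, CPM) against the summed share of marker genes of another tissue (x axes, % of counts) in the 6 heart libraries, with symbols for genotype and replicate numbers. The 2 hearts with the most lens and retina transcripts, sibling 1 and DM 1, have the highest sox10 levels (left). WT 3, with the largest neuron share, has the highest sox9b level (right). That share is above the share of sibling 1 only through the gene elavl3.

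The control groups of the hearts differed from each other by no more than about 1 SE. The log2 fold changes (sibling over WT) were -0.06 (SE 0.46) for sox9a, -0.78 (SE 0.72) for sox9b and 1.13 (SE 1.18) for sox10. They follow from the values against both controls that were in view when the genes were chosen, so they carry no test either. Among all 16998 genes edgeR called 0% in this comparison, with 833 at an unadjusted p under 0.05, and DESeq2 called 50. The sox9b value turned to 0.96 without WT 3, and the sox10 value turned to -0.27 without sibling 1.

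Sibling hearts were compared with sibling embryos, a contrast in which organ, stage and amplification of the RNA cannot be told apart. The level of sox9a was 29.0 ± 9.45 CPM in embryos (SD, n = 3) and 13.4 ± 2.91 CPM in hearts (SD, n = 2), a log2 fold change of -1.17 (SE 0.41). These levels too were in view when the genes were chosen, so the SoxE values carry no test. Of all genes, edgeR called 45% in this contrast, 22.5% lower and 22.5% higher. With the trend in span removed the sox9a value was -0.68, and with 1 library left out it ranged from -1.38 to -0.96. The log2 fold changes of sox9b and sox10 were 0.48 (SE 0.56) and -1.08 (SE 0.75).

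Ordered by mean level, sox9b stood at 72.5 CPM in WT hearts, 50.3 in sibling hearts, 34.8 in sibling embryos, 20.2 in DM hearts and 12.1 in DM embryos. Neighbouring groups in that order overlapped in their libraries, apart from DM hearts and DM embryos, with ranges of 18.2 to 22.1 and 8.25 to 17.9 CPM. The order of sox9a was sibling embryos (29.0 CPM), DM embryos (22.3), sibling hearts (13.4), WT hearts (11.6) and DM hearts (11.2), and its libraries separated embryos, at 16.5 CPM or more, from hearts, at 15.5 CPM or less. For sox10 it was sibling embryos (19.7 CPM), DM embryos (13.4), sibling hearts (9.99), DM hearts (4.37) and WT hearts (3.71), with overlap between all neighbours.

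In the authors' deposited tables, the log2 fold changes of sox9b were -0.97 in embryos (DM over sibling), -1.09 for DM over sibling hearts and -1.38 for DM over WT hearts. The authors' deposited table for embryos lists -0.24 for sox9a and -0.37 for sox10.

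Sox genes, lineages and tissues linked to SoxE factors were followed in embryos through 9 lists with 273 symbols. Of these, 263 were found and 238 tested. A gene on a list need not be a partner or target of a SoxE factor. In the blocked edgeR fit 57 of the 238 fell and 8 rose in DM embryos, beside 9.39% lower and 4.37% higher among all 17831 genes (13.8% in all). With the span trend removed too, the blocked fit called 1434 of all 17831 genes lower and 890 higher. Those are the counts to set beside list counts given with that trend removed. The lists were chosen with earlier results of these data known. Their shares beside those of all genes, here and below, are therefore no test of the lists. Without the block edgeR passed none of the 238, as it then called 0% of all genes, with 585 at an unadjusted p under 0.05. DESeq2, also without the block, called 39 (0.162%). Among them were the list genes tyr, tyrp1a, dct, and1, and2 and cyp26b1, all lower in DM (DESeq2 adjusted p up to 0.0489). Leaving out embryo pair 1 in the blocked fit called 24 lower and 2 higher among the list genes (2.46% and 0.612% of all genes), all of them among the 57 and 8. Leaving out pair 2 called 38 and 7 (4.87% and 1.95%), of which 37 and 6 were among those, and leaving out pair 3 called 68 and 17 (10.8% and 6.31%), of which 52 and 6 were. Each such fit keeps 2 pairs, too few to measure the spread of a gene well, so it is a weak check of a call. Without pair 3, 3119 of 18279 genes were called, more than the 2453 of 17831 with all pairs. In the sentences that follow, fell and rose refer to the blocked fit over all genes, and edgeR adjusted p without the block was 0.191 or more for each gene named. Several marker lists of other cell types moved with genotype in the same libraries. Within each embryo pair, the summed share of lens and retina, neuron, endothelium and cardiomyocyte markers was lower in DM, and that of skin markers was higher. Erythrocyte and skeletal muscle markers had no such direction, being higher in DM in pairs 1 and 3 and lower in pair 2. Shares in siblings and DM ranged over 0.0695% to 0.102% and 0.0565% to 0.0918% for the 17 neuron genes, 0.0351% to 0.0402% and 0.0277% to 0.0352% for the 16 endothelium and endocardium genes, 0.0908% to 0.193% and 0.0733% to 0.151% for the 18 cardiomyocyte genes, and 3.03% to 3.41% and 3.32% to 4.29% for the 16 skin genes. Every gene of these 4 lists was detected in every embryo library. The part of such tissue shares in the values of the 9 gene lists was not tested.

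Of the Sox genes listed beside SoxE, 7 of 17 tested fell and none rose. Their median log2 fold change was -0.41, against 0.02 over all genes. The neural progenitor gene sox1b fell by 0.79 (SE 0.17, adjusted p = 0.00413), and sox2, of the same group, by 0.61 (SE 0.16, adjusted p = 0.0144). In mouse, the SoxD proteins Sox5 and Sox6 join Sox9 at cartilage genes. The SoxD genes sox5, sox6 and sox13 fell by 0.55, 0.54 and 0.75 (adjusted p = 0.0221, 0.0208 and 0.0047). Of these, sox5 and sox6 were named after their values were seen. The SoxC gene sox4b fell by 0.60 (SE 0.17, adjusted p = 0.0206). Without pair 1 none of the 17 passed, with adjusted p of 0.0559 for sox13, 0.0701 for sox1b, 0.155 for sox2, 0.188 for sox5, 0.203 for sox6 and 0.339 for sox4b. Without pair 3, 8 fell and 1 rose. Without pair 2, 3 of the 17 passed, and sox2 (0.0658), sox5 (0.0806) and sox6 (0.0887) did not.

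The neural crest specifiers, which set crest identity at the neural plate border, showed 6 of 35 lower and 1 higher, with a median of -0.19, or 10 and 1 once the span trend was removed. The crest and xanthophore factor pax7a had 43.1, 20.1 and 32.9 CPM in siblings 1, 2 and 3 and 21.9, 5.99 and 9.22 CPM in DM 1, 2 and 3. DM 1 was just above sibling 2, and within each pair DM was lower. It fell by 1.39 on the log2 scale (SE 0.17, adjusted p = 7.98e-06, and 1.73e-05 or less with any pair left out). The pan-crest transcript crestin fell by 1.25 (SE 0.25, adjusted p = 0.0026), from 5.32 ± 2.86 to 2.19 ± 1.68 CPM (SD, n = 3). The Myc gene myca, a regulator of cell growth, fell by 0.91 (SE 0.15, adjusted p = 0.000513), and pax7b fell by 0.66 (SE 0.16, adjusted p = 0.0101, or 0.0504 without pair 1 and 0.0708 without pair 2). The early specifier foxd3, named after its values were seen, had -0.40 (SE 0.17, adjusted p = 0.106).

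Of the pigment genes linked to sox10, 10 of 23 fell and none rose, with a median of -0.45, or -0.30 once the span trend was removed. The rate-limiting melanin enzyme tyr was counted at 27.1, 15.5 and 29.2 CPM in siblings 1, 2 and 3 and at 12.3, 4.44 and 6.75 CPM in DM 1, 2 and 3, so that all DM libraries were below all siblings, as for 2.97% of all genes. It fell by 1.56 (SE 0.18, adjusted p = 2.31e-06). Of the melanosome enzyme genes, tyrp1a fell by 1.40 (SE 0.17, adjusted p = 7.37e-06), and tyrp1b by 1.26 (SE 0.18, adjusted p = 6.36e-05). All 3 calls held with each pair left out, with adjusted p up to 2.68e-05. That is a weak check, as the adjusted p of tyr was 2.22e-16 without pair 3, smaller than with all pairs. The melanophore factor mitfa, a direct target of Sox10 in zebrafish, and dct, an enzyme of melanin synthesis, were named after their values were seen, and they fell by 0.66 (adjusted p = 0.0284) and 0.98 (adjusted p = 0.00021). The call of mitfa was lost without pair 1 (adjusted p = 0.127) or pair 2 (0.174), while 7 and 8 of the 23 genes fell, all of them among the 10. Lens and retina markers were lower in the same DM embryos. The part of eye tissue in the pigment gene values, and that of crest cells or sox10, was not tested.

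Genes of glia and peripheral neurons showed 4 of 23 lower and 1 higher, with a median of -0.14, or 5 and 2 with a median of -0.01 once the span trend was removed. Proneural ascl1a fell by 0.83 (SE 0.17, adjusted p = 0.00346, or 0.0563 without pair 1). The glial glutamate transporter genes slc1a3a and slc1a3b fell by 0.55 (SE 0.15, adjusted p = 0.0201, or 0.210 without pair 1 and 0.181 without pair 2) and 1.29 (SE 0.31, adjusted p = 0.00802, or 0.0543 without pair 3). The call of slc1a3a was also lost with the span trend removed (adjusted p = 0.0795). The hindbrain and Schwann cell factor egr2b rose by 0.88 (SE 0.19, adjusted p = 0.00514, or 0.113 without pair 1), from 4.62 ± 1.68 to 8.29 ± 3.81 CPM (SD, n = 3).

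Cartilage genes linked to Sox9 showed 7 of 42 lower and 2 higher, with a median of -0.12, or 5 and 1 with a median of -0.06 once the span trend was removed. The fibrillar collagen genes col2a1a and col11a2, targets of Sox9 in mouse, differed more between pairs than between genotypes. Siblings 1, 2 and 3 held 842, 174 and 307 CPM of col2a1a, and DM 1, 2 and 3 held 529, 104 and 90.9 CPM. Both libraries numbered 1 were high, and within each pair DM was lower. The log2 fold change was -0.98 (SE 0.18, adjusted p = 0.00122, and 0.0183 or less with any pair left out). For col11a2 it was -1.20 (SE 0.17, adjusted p = 6.5e-05), and for col9a1b -0.75 (SE 0.17, adjusted p = 0.0071, or 0.0648 without pair 1). The BMP antagonist gene nog3 rose by 1.40 (SE 0.26, adjusted p = 0.00127), from 1.86 ± 0.483 to 4.57 ± 1.13 CPM (SD, n = 3), and every DM library was above every sibling, as for 3.02% of all genes.

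Ear and placode genes showed 4 of 26 lower and 2 higher, with a median of -0.16, or 6 and 1 once the span trend was removed. Without pair 1, 2 of the 26 fell and none rose, and without pair 2, 2 fell and 2 rose. The otic vesicle factors pax2a and pax8 fell, by 0.88 (SE 0.17, adjusted p = 0.00208) for pax2a and by 0.95 (SE 0.23, adjusted p = 0.00961, or 0.185 without pair 1) for pax8. The otolith matrix gene stm rose by 0.61 (SE 0.16, adjusted p = 0.0153, or 0.254 without pair 1), and otog, for the otogelin of the acellular membranes of the ear, fell by 0.77 (SE 0.22, adjusted p = 0.0233, or 0.0648 without pair 2, 0.139 without pair 3 and 0.0912 with the span trend removed).

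Fin fold and fin bud genes showed 6 of 25 lower and none higher, with a median of -0.10, or 4 and none with a median of -0.02 once the span trend was removed. Fibres of the fin fold are built with actinodins, and their genes and1 and and2 stood at -2.74 and -2.73 on the log2 fold change scale and passed with each pair left out. Siblings 1, 2 and 3 held 13.2, 5.92 and 16.1 CPM of and1, and DM 1, 2 and 3 held 1.77, 1.44 and 1.71 CPM. A further actinodin gene, and3, did not pass the filter on low counts, at 0.778, 0.666 and 2.36 CPM in siblings 1, 2 and 3 and 0.161, 0 and 0 CPM in DM 1, 2 and 3. The signalling gene shha fell by 0.57 (SE 0.17, adjusted p = 0.0282) and frem2a, for a basement membrane protein, by 0.64 (SE 0.18, adjusted p = 0.0219). The call of shha was lost with any pair left out (adjusted p of 0.0564 to 0.0856), and that of frem2a without pair 1 (0.522) and with the span trend removed (0.134).

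Radial glia, retina and neural progenitor genes showed 11 of 32 lower and 1 higher, with a median of -0.27, or 12 and 1 with a median of -0.35 once the span trend was removed. Without pair 1, 7 of the 32 fell, and without pair 2, 8 fell, with none higher in either fit. The gene of the retinoic acid hydroxylase Cyp26b1 had 52.8, 45.8 and 55.7 CPM in siblings 1, 2 and 3 and 19.1, 13.4 and 15.6 CPM in DM 1, 2 and 3. So cyp26b1 was lower in every DM library by more than the spread of either group. Every DM library was below every sibling for 2.97% of all genes. Eye field factor rx1 fell by 1.3 (SE 0.19, adjusted p = 9.66e-05), the glial transporter gene slc1a2b by 1.38 (SE 0.22, adjusted p = 0.000242) and notch1a by 1.16 (SE 0.19, adjusted p = 0.000459). All 4 passed with each pair left out.

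Valve, cushion and epicardium genes showed 6 of 34 lower and 1 higher in whole embryos, with a median of -0.15, or 6 and 3 with a median of 0.00 once the span trend was removed. The receptor gene notch1b fell by 1.03 (SE 0.18, adjusted p = 0.000769) and heg1, for an endocardial receptor, by 0.83 (SE 0.17, adjusted p = 0.0031). Cushion matrix gene vcana fell by 0.77 (SE 0.16, adjusted p = 0.00331, or 0.224 without pair 1). The Notch target hey2 rose by 0.79 (SE 0.15, adjusted p = 0.00209, or 0.0853 without pair 1).

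**Figure D4:**
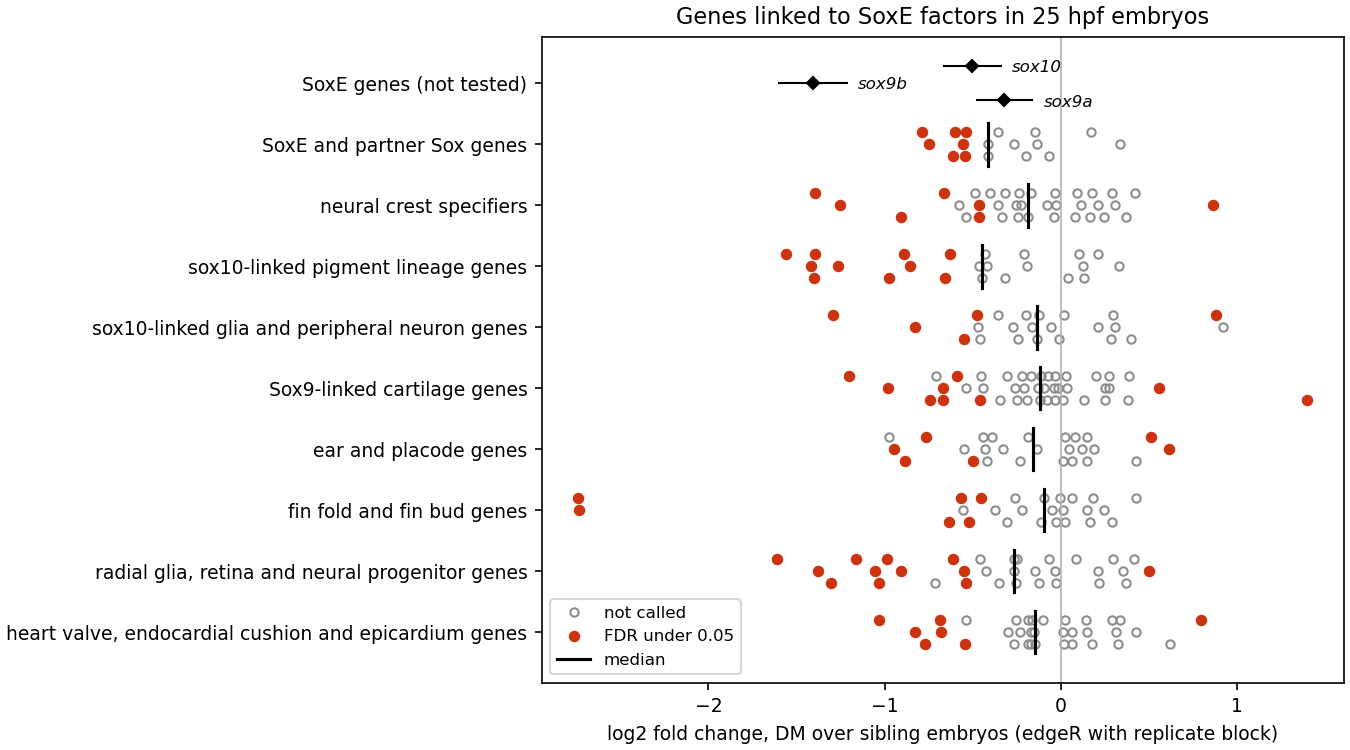
Log2 fold change (x axis, DM over sibling embryos, blocked edgeR fit) of each tested gene of the 9 lists, with sox9a, sox9b and sox10 above them as diamonds with their SE and no test. Filled points passed an adjusted p (FDR) of 0.05, open points did not, and vertical bars are list medians, which run from -0.45 for pigment genes to -0.10 for fin genes.

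In hearts edgeR called 0% of the 16998 genes in DM against sibling (568 at an unadjusted p under 0.05, DESeq2 66) and in DM against WT (1254 at an unadjusted p under 0.05, DESeq2 120), so no list gene passed. By DESeq2, 0.202% of genes were lower against siblings and 0.291% against WT. The valve, cushion and epicardium list had a median log2 fold change of -0.26 for DM over sibling, of -0.90 for DM over WT and of -0.54 for sibling over WT, with medians of all genes at 0.04, 0.02 and 0.00. Other lists moved as much or more. For DM over sibling, fin fold genes had -0.98 and crest specifiers -0.42, while pigment genes had 0.17 and cartilage genes 0.36. For DM over WT, pigment genes had -0.96, while Sox genes had 0.01, glia genes 0.08 and cartilage genes 0.32. Pigment genes had a similar -0.88 for sibling over WT, so their value against WT was not particular to DM. Erythrocyte markers took 0.348% and 0.398% of counts in WT hearts 1 and 3, 0.130% and 0.160% in siblings and 0.199% and 0.218% in DM, all 15 genes being detected in every heart. Skin markers took 0.0757% and 0.0882% in WT and 0.179% to 0.318% in siblings and DM, with 15 or 16 of 16 genes detected, and skeletal muscle markers took 1.42% in DM 1 and 0.168% to 0.340% in the other hearts, with all 18 detected. The part of these tissues in the heart medians was not tested. Cushion gene has2, the hyaluronan synthase of the cardiac jelly, was called by DESeq2 and named after its values were seen. It stood at 300 and 221 CPM in WT 1 and 3, 122 and 342 CPM in siblings 1 and 3, and 46.3 and 56.3 CPM in DM 1 and 3. Both DM hearts were below all 4 control hearts. Of all genes, 15% were lower in both DM than in both sibling hearts and 8.99% than in both WT hearts. The share below all 4 was not counted. The DESeq2 log2 fold changes were -2.22 (SE 0.59, adjusted p = 0.0371) against siblings and -2.68 (SE 0.59, adjusted p = 0.00247) against WT, and the edgeR adjusted p were 1.00 and 0.654.

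The crest and fin gene prdm1a, also named for its DESeq2 call, had 19.8 and 51.2 CPM in WT 1 and 3, 46.8 and 28.1 CPM in siblings 1 and 3, and 5.33 and 5.65 CPM in DM 1 and 3. DM hearts were below all controls here too, beside 15% of all genes lower against both siblings and 8.99% against both WT. DESeq2 gave -2.79 against siblings (SE 0.63, adjusted p = 0.00497) and -3.01 against WT (SE 0.63, adjusted p = 0.00137), and edgeR adjusted p were 1.00 and 0.648. Further DESeq2 calls among the list genes were uneven between libraries of a group. Fin fold gene and1 had 34.2 and 88.7 CPM in WT 1 and 3, 427 and 38.2 CPM in siblings 1 and 3, and 13.1 and 3.30 CPM in DM 1 and 3, so the lens-bearing sibling 1 was far above the rest. The same sibling was highest for and3 (83.6 CPM, against 21.4 CPM in sibling 3 and 4.96 and 0.471 CPM in DM) and for frem2a (146 CPM, against 51.1 CPM in sibling 3 and 10.3 and 10.1 CPM in DM), and WT 1 held 9.89 CPM of frem2a, about the DM level. Those 3 were called against siblings, and tyrp1a against WT, where it had 14.3 and 26.4 CPM against 4.41 and 1.41 CPM in DM and a similar 4.86 and 1.34 CPM in siblings.

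Over the 12 libraries, the levels of sox9a and sox10 followed each other more than either followed sox9b. Pearson's r of log2 CPM was 0.68 for sox9a and sox10, 0.04 for sox9a and sox9b and 0.01 for sox9b and sox10, as a description of libraries that share depth and tissue. An r of 0.68 was common: 22.1% of the other genes compared had a higher r with sox9a than sox10 had. Likewise 11.7% had a higher r with sox10 than sox9a had. The genes most like sox9a over these libraries were hnrnpm (r = 0.99), aqr, cenpe, smarca5 and zbtb16a. Most like sox9b were ddhd1b (r = 0.94), safb, smc1al, map4k4 and upf1, and most like sox10 were plekhg7 (r = 0.96), loxl1, mafa, abi3b and col11a1b. The collagen gene col11a1b is also on the cartilage list, and it fell in DM embryos by 0.67 (SE 0.16, adjusted p = 0.00966, or 0.131 without pair 1).

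Within the 6 embryo libraries r was 0.97 for sox9a and sox10, 0.89 for sox9b and sox10 and 0.81 for sox9a and sox9b. High values were common there: sox9a had r over 0.9 with 3265 of 13192 genes, sox10 with 3473 and sox9b with 1124. The genes most like sox9b in embryos were si:dkey-31f5.11, cpt1aa, dld, pgpep1 and ncaph (r from 0.99 to 1.00). The genes most like sox9a were enc1, adnp2b, zhx3, myt1a and hsd17b4, and those most like sox10 were zmym4, HNRNPUL1 (1 of many), add1, si:dkey-217d24.6 and kpna4, each with r of 1.00 after rounding.

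The last SoxE genes, sox8a and sox8b, were at or near the detection limit in embryos, with at most 2 counts of sox8a and 8 counts of sox8b in a library. Their group sums were 5 and 2 counts of sox8a and 19 and 7 counts of sox8b in sibling and DM embryos. In hearts sox8a ranged from 0 counts in DM 1 to 13 counts in sibling 1, and sox8b from 1 count in sibling 1 to 21 counts in DM 1. No difference between groups is read from these counts.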

How the data were processed

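RNA was measured in 12 libraries, grouped by the labels alone. Raw counts for each gene, as deposited and named per the file headers, gave every level and test. Beside them the authors deposited, for each gene and comparison, a log2 fold change with a p-value and its adjusted p-value, as well as 18 columns of normalised values that were not used. The direction of each deposited fold change was inferred from its correlation across genes with the CPM ratio of the groups. Where that correlation was negative, in the comparisons with WT, the sign was reversed. Per the submitters' processing notes, which give no roles, STAR 2.3.0e and HTSeq 0.6.0 were used with build GRCz10. Strandedness of the counting is not given in the sources used here.

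CPM are counts scaled by the library total. For tests, TMM scaling and filterByExpr preceded the quasi-likelihood test of edgeR 4.0.16 (limma 3.58.1, R 4.3.3), with Benjamini-Hochberg adjustment over all genes at 0.05. The 6 embryo libraries formed 1 fit, the 6 hearts another with a spread shared by 3 groups, and all 12 a fit for hearts against embryos. The script was tested on simulated data. Intervals of 95% are exact and, like the limit of 3 counts behind a 0, cover counting error only. Likeness used genes with a mean of at least 5 CPM and a prior count of 2.

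Equally numbered embryo libraries deviated together (correlations across genes of 0.847, 0.672 and 0.270, each over 0.1), so the number was used as a block, although sibling 2 and DM 3 also had 0.512 and the labels state no pairing. Trends with genomic span were removed by lowess (span 0.3). Alternatives were DESeq2 1.42.0, other size factors, no filter, left-out libraries and pairs, and fits on fewer groups.

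The SoxE genes and the gene lists were chosen with earlier results of these data known. Named genes are the SoxE genes, tet2 and tet3, up to 4 genes per list with the smallest p among those called in the blocked embryo fit, up to 2 per heart comparison among those called, and the 5 genes most like each SoxE gene. Others are said to be named after their values were seen. Sequences were not used here.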

Additional observations from a re-analysis of the deposited data

How the results depend on the processing

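The count of genes called in DM against sibling embryos was 0 in the edgeR test without a block, 0 to 2 with 1 library left out, 39 in DESeq2, 2453 with the replicate block, 2324 with the replicate block and the span trend removed, and 536, 1227 and 3119 in the replicate block with pair 1, 2 or 3 left out. In hearts, DM against sibling gave 0 calls, or 3 without a filter on low counts and 66 in DESeq2. DM against WT gave 0, 3 and 120, and sibling against WT gave 0, or 50 in DESeq2. With 1 heart left out all 3 counts were 0. The cause of the differences between tools was not tested.

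In embryos the log2 fold changes of the SoxE genes kept their sign in every alternative, and with 1 library left out they ranged from -0.65 to -0.11 for sox9a, -1.76 to -1.24 for sox9b and -0.83 to -0.29 for sox10. In hearts with 1 library left out, DM over sibling ranged from -0.62 to -0.0023 for sox9a, -1.56 to -1.10 for sox9b and -4.25 to 0.18 for sox10. DM over WT ranged from -0.67 to -0.065, -2.87 to -0.37 and -3.12 to 0.80, and sibling over WT from -0.25 to 0.17, -1.54 to 0.96 and -0.27 to 1.86, in the same order. With the hearts numbered 3 alone, sox9a was 0.18 for DM over sibling and -0.42 for sibling over WT. In the same libraries sox10 was -2.80 for DM over WT and -0.68 for sibling over WT. Of these values, the sign changed for sox9a in DM over sibling and for sox10 in sibling over WT. Upper quartile factors gave 0.0061 for sox9a in sibling over WT. Sibling hearts over sibling embryos ranged from -1.38 to -0.96 for sox9a, which was -0.68 with the span trend removed. The number of genes called there was 8740, and 6225 to 9405 with 1 library left out. Without embryo sibling 1, the unblocked log2 fold changes turned to 0.015 for col2a1a and 0.15 for col9a1b, and with each embryo library left out they ranged down to -2.03 and -1.68.

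In hearts the numbers 1 and 3 were not shown to pair the libraries. With the number as a replicate block, sox9b was -1.43 for DM over sibling and -1.87 for DM over WT, sox10 was -1.41 and -0.95, and no gene was called. Sibling and WT hearts deviated oppositely (correlation -0.250), and crossing the WT numbers, chosen after seeing the data, also called 0 genes. Heart counts of sox10, at 2 to 54 per library, limit what can be read from it. A planned comparison of the SoxE proteins was not run.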

Other observations

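Genes near the SoxE genes were looked at within 500 kb on the deposited coordinates, in the blocked embryo fit. Around sox9a 7 of 11 genes were tested and 1 fell. Around sox9b 13 of 16 were tested and 3 fell, srebf1 by 0.68 (SE 0.17, adjusted p = 0.00966), proza by 0.57 (SE 0.16, adjusted p = 0.0208) and tbl3 by 0.53 (SE 0.16, adjusted p = 0.0251). Around sox10 8 of 28 were tested and 3 fell, tcf20 by 0.81 (SE 0.17, adjusted p = 0.00335), wbp11 by 0.68 and srebf2 by 0.52. None of these neighbours rose, and among all genes 9.39% fell and 4.37% rose. The calls of these neighbours were not looked at with pairs left out or the span trend removed. The nearest tested neighbour of sox10, polr2f at 9.94 kb, had a log2 fold change of 0.34 (SE 0.16, adjusted p = 0.133).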
